A study of Mus musculus with 4 samples.

Results

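The Rab GTPases described here are the 56 mouse genes, of 18193 on the array, whose symbol is Rab followed by a number and at most 1 letter, without Rab27a, Rab32 and Rab38, the members known for their work on melanosomes. They were read by 125 probe sets, with 1 probe set for 20 genes and up to 7 for the other 36. Total RNA of cultured skin melanocytes of Balb/c mice was measured on 4 arrays, 2 for a line without pigment (non-pigmented) and 2 for a pigmented one. The non-pigmented melanocytes carry a point mutation of the tyrosinase gene on both alleles, and the pigmented ones are described as wild type, with that mutation corrected. Both lines were grown in RPMI medium with serum (FCS), 2-mercaptoethanol and the phorbol ester TPA, an activator of protein kinase C. The labels do not say how the mutation was corrected, whether a line is 1 clone, or whether a line's arrays are separate cultures. The p-values reflect the scatter of these samples alone, and that scatter may be technical.

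Rab proteins are small GTPases that give each membrane compartment its identity and direct vesicle budding, transport and fusion. Exchange factors (GEFs) load them with GTP, GTPase activating proteins (GAPs) switch them off, and a prenyl group added with the help of an escort protein anchors them in the membrane, from which the inhibitor GDI takes them up. In melanocytes they sort enzymes from the Golgi and endosomes to maturing melanosomes, recycle the carriers and move the finished organelles.

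Values are probe set signals, and differences are pigmented minus non-pigmented on a log2(signal + 16) scale, which understates the change of dim genes. An error after ± is the standard error from limma beside a difference and the SD of 2 arrays beside a mean. The threshold for a call was 0.05 for the limma p adjusted over all 12558 genes bright enough to test. Signals of different probe sets cannot be set against each other, so no Rab gene is ranked above another by level. With 2 arrays against 2, an exact permutation test of 1 gene cannot give a two-sided p below 0.333.

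Both lines carried melanocyte markers, but unequally. Of 10 melanocyte markers 7 were called as higher in the pigmented line, where 1.33% of all tested genes were. Kit, 1 of the 7, entered the test only through its pigmented arrays. The summed signal of the 10 was 15600 and 26900 in the non-pigmented and 138000 and 128000 in the pigmented arrays. The lineage factor Sox10, 1 of the 3 not called, had signals of 8270 and 8560 against 8600 and 10200. Tyrp1, also not called, read 1430 and 9310 against 14200 and 17500, so its non-pigmented arrays were far apart. Sox10 and Tyrp1 together made up much of the non-pigmented sums. Among the 7 called, Dct read 1090 and 970 against 19400 and 20500. Tyr read 214 and 67.2 against 17300 and 11700, and Kit 62.4 and 72.1 against 5090 and 3460. On the list for Schwann cells and neural crest progenitors 5 of 7 tested genes were called as lower, where 2.03% of all tested genes were. Of these, Sox2 and Nes entered the test only through their non-pigmented arrays. The summed signals of the list were 22700 and 27700 against 2370 and 3390. Summed signals of the keratinocyte, fibroblast, immune and endothelial lists lay between 294 and 1640 on every array, and among them Krt10 of keratinocytes was the single call, as lower, having entered the test through its non-pigmented arrays. Such sums can be read between arrays within a list, but not between lists. Replicate 2 of either line had a low 5′ signal of the Gapdh control (a 3′ to 5′ ratio of 20.2 and 16.8, against 0.903 and 0.864 in replicates 1), so the arrays fall into an intact pair and a pair with low 5′ signal. In such bulk RNA, fewer cells of a type and less RNA per cell cannot be told apart.

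Of the tested Rab genes 1 separated the lines past the threshold. Rab5b, an early endosome GTPase, rose 7.68-fold in the pigmented melanocytes, and the other 43 of 44 tested Rab genes did not pass the test. By limma 3.36% of all tested genes were called, 1.33% as higher and 2.03% as lower. At an unadjusted p under 0.05 stood 2 Rab genes, Rab5b and Rab7b, or 4.55%, against 13.8% of all tested genes. The remaining 12 of the 56 genes were too dim to test.

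Most differences were small. Of the 44 genes 41 (93.2%) differed by less than 1 on the log2 scale, against 79.8% of all tested genes and 85.7% of the 3610 genes at least as bright as the median Rab gene. The 3 beyond that were Rab5b, Rab7b and Rab35. The median difference of the Rab genes was -0.03, with 21 above 0 and 23 below, and that of all tested genes was 0.07. When each array was centred on its median the values were -0.27 and -0.18, so the Rab median lay 0.1 below the rest either way, and its own sign says little. The standard error of a Rab difference ranged from 0.3 to 0.81, and 36 of the 44 intervals at 95% lay within 2 on either side of 0 but only 2 within 1. For the others the interval reached past a 2-fold change on at least 1 side, so the lack of a call does not show that the lines were equal.

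**Figure D1:**
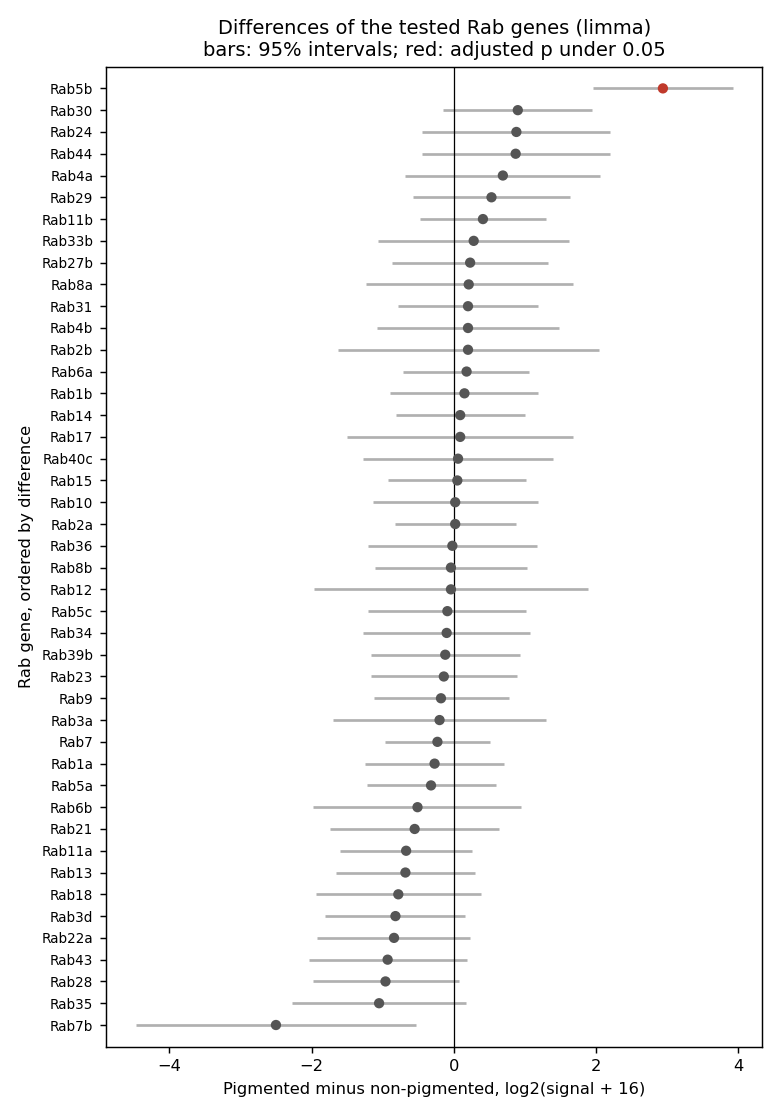
Differences of the 44 tested Rab genes (x axis, log2 scale, pigmented minus non-pigmented; y axis, genes in order of the difference), with points for the estimate and bars for the 95% interval from limma. Rab5b stands alone at 2.94 on the right and Rab7b at -2.50 on the left, and every other point lies between -1.05 and 0.90.

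The Rab5 proteins drive the fusion of endocytic vesicles with early endosomes, and the family has 3 closely related members. Rab5b (Entrez gene 19344) gave signals of 124 and 112 on the non-pigmented arrays, replicate 1 first, and of 1070 and 961 on the pigmented ones, an order kept for all genes here. Both pigmented arrays stood far above both non-pigmented ones, and replicates of a line lay close together. On the log2 scale the means were 7.06 ± 0.09 (SD, n = 2) in the non-pigmented and 10.01 ± 0.1 (SD, n = 2) in the pigmented line. The difference was 2.94 ± 0.40 (limma, adjusted p = 0.0182), with a 95% interval of 1.96 to 3.92. It was 2.95 in the intact pair of arrays and 2.93 in the pair with low 5′ signal, and 2.81 and 3.08 within the 2 dates that the titles carry. The melanocyte and the Schwann cell and progenitor markers above differed between the lines as well, and their part in this and the other differences was not tested.

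The call of Rab5b rested on 1 of its 2 probe sets, which represented the gene only through its pigmented arrays. Its mean log2 value was 7.06 in the non-pigmented and 10.01 in the pigmented line, against 7.27 and 8.54 for the other probe set. The other read 197 and 95.6 in the non-pigmented and 641 and 195 in the pigmented replicates, a difference of 1.27 in the same direction, with overlapping groups. Averaging both gave 2.11 with an adjusted p of 0.0825 by limma. Leaving out non-pigmented replicate 1 or 2 gave a difference of 3.0 or 2.88, and leaving out pigmented replicate 1 or 2 gave 2.87 or 3.02. Each such fit holds a single array of 1 line, whose spread is then not measured, and the call was not kept in all of them.

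Neither paralog passed the test. Rab5a read 3340 and 4170 in the non-pigmented and 3150 and 2860 in the pigmented arrays, a difference of -0.32 with a 95% interval of -1.22 to 0.59. The non-pigmented arrays were the higher ones, with no overlap, but the gap was within the error of the fit (adjusted p of 0.801 by limma). Rab5c read 897 and 1170 against 768 and 1200, with overlapping groups and a difference of -0.09 (interval -1.20 to 1.01). The upper ends of both intervals lie below the lower end of the interval of Rab5b, 1.96, although the difference between paralogs itself was not tested.

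The 250 bases before the start of the 3 Rab5 genes are shown because 1 of the 3 was called and its paralogs were not. They are RefSeq sequences of build GRCm38.p6, 5′ to 3′ on the strand of the gene, and capitals mark CACGTG and CATGTG, E-box letters that Mitf and its relatives can bind, and CCAAT, each on both strands. The window of Rab5b is chr10:128696269-128696518 on the minus strand, that of Rab5a chr17:53478984-53479233 on the plus strand and that of Rab5c chr11:100738216-100738465 on the minus strand.
Rab5b: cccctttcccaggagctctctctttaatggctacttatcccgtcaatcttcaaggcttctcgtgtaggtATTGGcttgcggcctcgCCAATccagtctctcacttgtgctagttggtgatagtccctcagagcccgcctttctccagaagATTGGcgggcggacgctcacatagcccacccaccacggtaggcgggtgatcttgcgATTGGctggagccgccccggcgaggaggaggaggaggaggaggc
Rab5a: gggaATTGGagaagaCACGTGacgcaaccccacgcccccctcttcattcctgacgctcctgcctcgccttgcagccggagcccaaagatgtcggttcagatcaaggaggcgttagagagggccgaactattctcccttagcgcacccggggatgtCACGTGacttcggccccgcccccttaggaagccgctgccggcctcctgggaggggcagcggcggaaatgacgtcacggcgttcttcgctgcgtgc
Rab5c: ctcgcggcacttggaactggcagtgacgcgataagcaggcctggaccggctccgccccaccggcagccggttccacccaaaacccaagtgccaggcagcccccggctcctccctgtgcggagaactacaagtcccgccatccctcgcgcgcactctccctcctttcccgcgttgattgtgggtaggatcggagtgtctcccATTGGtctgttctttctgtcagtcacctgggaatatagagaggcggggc

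The Rab5b window held 4 CCAAT letters in either orientation and neither E-box, that of Rab5a held 2 CACGTG and 1 CCAAT, and that of Rab5c 1 CCAAT. Of all 32851 RefSeq windows of this length 6.02% held CACGTG, 12.3% CATGTG and 33.8% CCAAT. Among the 57 windows found for 46 of the Rab genes the shares were 7.02%, 10.5% and 40.4%. A match is a description of letters and not a bound site.

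The other early endosome Rabs did not pass. Rab22a, which sorts cargo in early endosomes, read 1700 and 1110 in the non-pigmented and 796 and 717 in the pigmented arrays, a difference of -0.84 ± 0.44 (limma, adjusted p = 0.496). Its pigmented arrays were the lower ones without overlap. All 4 of its probe sets were above the filter, and 3 of them had this sign. Rab21, which takes up integrins, differed by -0.55, Rab31 by 0.20 and Rab17 by 0.09.

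Rabs of the recycling endosome, which returns receptors to the surface, showed no call among 7 tested and a median of 0.09. The lowest was Rab35, a GTPase of fast recycling and cell division, with signals of 1250 and 1370 in the non-pigmented and 902 and 430 in the pigmented arrays. Both pigmented values lay below both non-pigmented ones, by a difference of -1.05 ± 0.50 (adjusted p of 0.451 by limma), of which -0.47 was seen in the intact and -1.63 in the low 5′ pair. Rab4a, another GTPase of fast recycling, had the highest difference of the group, 0.69 ± 0.56, from 836 and 1380 against 1140 and 2660, and the groups overlapped. Its paralog Rab4b, at 1180 and 561 against 1140 and 773, differed by 0.20. The slow recycling paralogs Rab11a and Rab11b had differences of opposite sign, -0.67 and 0.41, neither past the test (adjusted p of 0.525 and 0.728 by limma). The second probe set of Rab11a differed by -0.06, and the other probe sets of Rab11b by 0.27 and -0.89.

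Late endosome and lysosome Rabs gave the lowest tested value of the family. Rab7b, which takes part in traffic between late endosomes and the Golgi, read 340 and 154 in the non-pigmented arrays but 4.42 and 77 in the pigmented ones. The non-pigmented arrays were higher without overlap, and the pigmented pair was far apart. The difference was -2.50 ± 0.81 with a 95% interval of -4.47 to -0.53 and an adjusted p of 0.232 by limma. It was -4.12 in the intact and -0.87 in the low 5′ pair. Without pigmented replicate 2 it was -3.59 and without pigmented replicate 1 it was -1.41. Each of these leaves a single pigmented array, so the spread of the pigmented line is not measured there. Rab7b entered the test through its non-pigmented arrays, and its other 2 probe sets, both below the filter, differed by -1.19 and 0.28.

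Rab7 itself, the main late endosome GTPase, read 10500 and 11600 against 8340 and 10600, with overlapping groups. Its difference of -0.23 had an interval of -0.96 to 0.51, 1 of the 2 intervals in the family that lay within 1 on either side of 0. Rab24, linked to autophagy, read 1210 and 631 against 2240 and 1170, with groups that overlapped although its difference was 0.87 in the intact and 0.88 in the low 5′ pair. Its estimate was 0.88 ± 0.55, and both of its probe sets gave about that value (0.88 and 0.91). Rab9, a GTPase of return traffic to the Golgi, differed by -0.18, and Rab29, which acts at the Golgi and lysosomes, by 0.53.

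**Figure D2:**
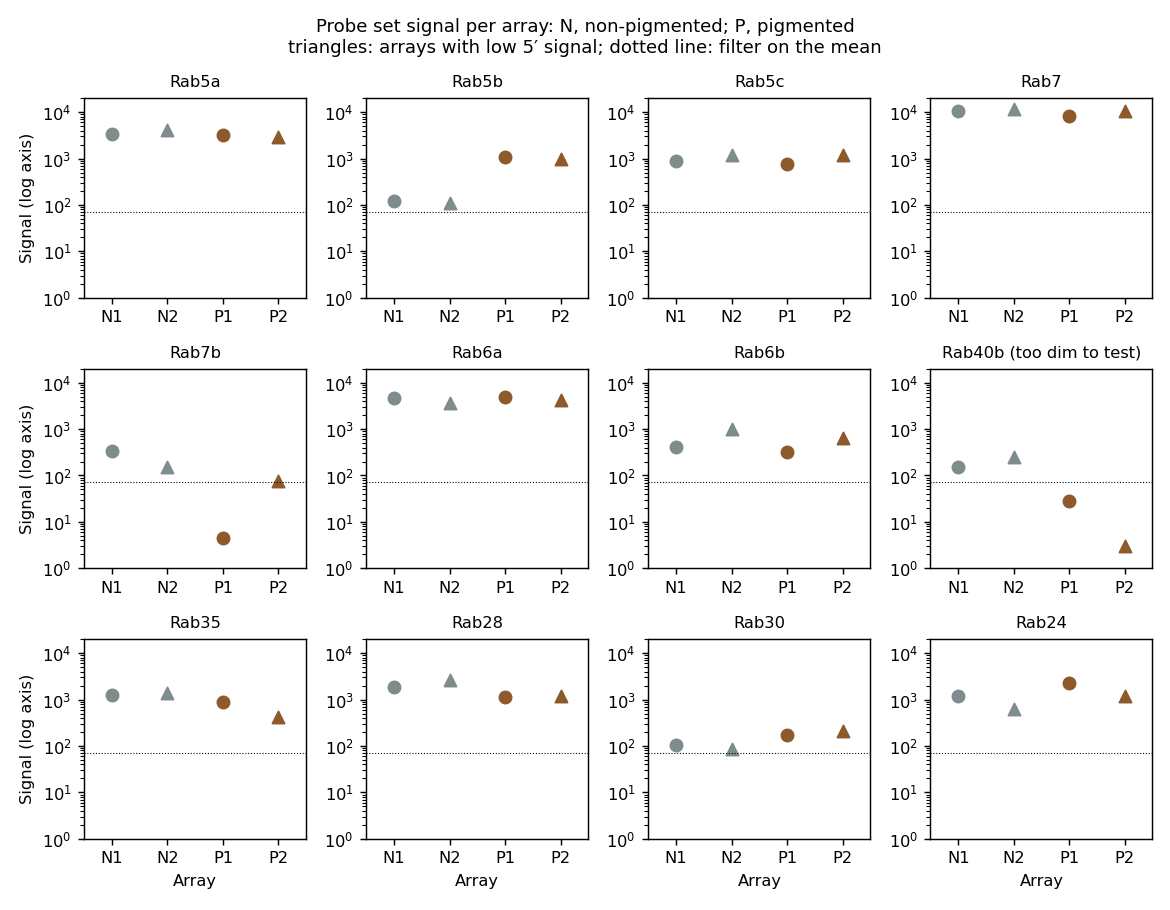
Signal (y axis, log scale, arbitrary units) of the representing probe set of 12 Rab genes on the 4 arrays (x axis; N, non-pigmented; P, pigmented), with triangles for the arrays of low 5′ signal. Rab5b lies at 112 to 124 in the non-pigmented and 961 to 1070 in the pigmented arrays, whereas Rab5a, Rab5c and Rab7 hold about the same height on all 4.

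Among the 13 tested Rabs of the endoplasmic reticulum and Golgi none was called, and their median was -0.02. Rab43, a Golgi GTPase, read 1230 and 1370 against 519 and 871, without overlap, a difference of -0.93 ± 0.46 (adjusted p of 0.463 by limma). Its other 2 probe sets had the opposite sign, at 0.76 and 0.26. Rab30, also of the Golgi, had the highest difference of the group, 0.90 ± 0.43, from signals of 106 and 84 against 171 and 213, with the pigmented arrays higher and an adjusted p of 0.451 by limma. Its second probe set, above the filter only through its pigmented arrays, differed by 1.15. The core transport genes Rab1a, Rab1b, Rab2a and Rab2b, which act between these organelles, differed by -0.27, 0.15, 0.02 and 0.20.

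The Rab6 genes direct transport at the Golgi, and the probe sets of Rab6b had the widest range of differences in the family. Rab6b, known best from neurons, was represented by a probe set that read 409 and 1020 against 322 and 627, a difference of -0.51 with overlapping groups. A second probe set read 362 and 1030 against 14.8 and 44.2, and another 275 and 1340 against 69.7 and 76.1. In both of these the pigmented arrays were the lower ones by a wide margin, with differences of -3.87 and -2.82. The remaining one, below the filter, differed by -1.92. When every probe set was tested on its own, the adjusted p by limma was 0.0646 for the probe set at -3.87 and 0.215 for that at -2.82. None of the 3 tested singly passed, and the one at -3.87 entered the test only through its non-pigmented arrays.

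For Rab6a the representing probe set differed by 0.18, while the other 2 differed by -1.24 and -1.58, with lower pigmented arrays in both and adjusted p-values of 0.342 and 0.401 by limma. Which transcripts these probe sets read was not tested. These probe set values were singled out after they had been seen.

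Across the family the probe sets of some genes disagreed in sign. Of the 29 Rab genes with at least 2 probe sets above the filter, 12 had differences of both signs and 17 of 1 sign. The share among all genes with several probe sets was not counted. The range between a gene's probe sets, highest minus lowest, had a median of 0.50 over these 29 genes. The median absolute difference of the 44 tested genes was 0.23, but a range is an unlike measure, so these medians cannot be compared directly. For Rab14, which shuttles between the Golgi and endosomes, 7 probe sets ran from -0.60 to 1.5. Of 97 Rab probe sets tested singly, 1 was called, that of Rab5b (adjusted p of 0.041 by limma), against 1.73% of all 22341.

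**Figure D3:**
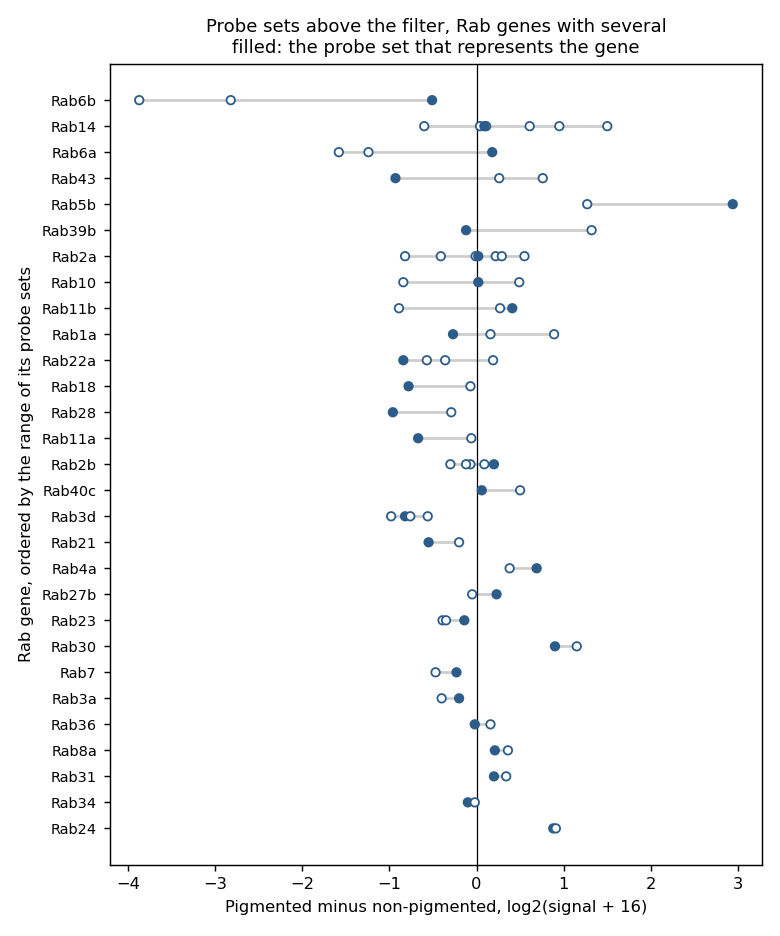
Differences (x axis, log2 scale) of all probe sets above the filter for the 29 Rab genes with several (y axis, in order of the range), with filled circles for the probe set that represents the gene. Rab6b has the widest range, 3.36, with its representing probe set nearest to 0, and Rab24 the narrowest, 0.03.

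The 5 Rabs listed for the route from the Golgi to the plasma membrane, Rab8a, Rab8b, Rab10, Rab12 and Rab13, lay between -0.68 (Rab13) and 0.21 (Rab8a), with 0 called. Rab28 and Rab23, which act at the cilium, gave -0.96 and -0.14. Rab28 read 1870 and 2680 in the non-pigmented and 1110 and 1190 in the pigmented arrays, lower in both pigmented replicates, with an interval of -1.98 to 0.07 and an adjusted p of 0.405 by limma. Its second probe set differed by -0.29.

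Of the 8 Rabs of regulated secretion on the array 4 were bright enough to test and none was called. Rab3a, a synaptic vesicle GTPase, read 1920 and 6580 against 2990 and 3210, with overlapping groups and a difference of -0.20 ± 0.62. Rab3d, a secretory granule GTPase, read 740 and 845 against 449 and 430, lower in both pigmented arrays, with a difference of -0.82 ± 0.41 (adjusted p of 0.467 by limma). All 4 of its probe sets had this sign, the other 3 with overlapping groups. Rab44, an unusually large member known from immune cells, had signals of 50.2 and 69.6 against 78.6 and 185 and a difference of 0.87 ± 0.54, and it entered the test through its pigmented arrays. Rab27b, the paralog of the melanosome tether Rab27a, read 112 and 72.9 against 102 and 116, a difference of 0.23 with an interval of -0.87 to 1.33. Only 2 of its 4 probe sets were above the filter. The other one above it differed by -0.05, and those below it by -1.47 and -0.63, all with overlapping groups.

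The 12 untested genes were Rab3b, Rab3c, Rab9b, Rab19, Rab20, Rab25, Rab26, Rab33a, Rab37, Rab39, Rab40b and Rab42. Their signals ran from 2.97 to 249 with a median of 27.2. Rab40b, a substrate adaptor of ubiquitin ligases, was the one with a wide gap, and was singled out after its values had been seen. It read 155 and 249 in the non-pigmented but 27.6 and 2.97 in the pigmented arrays, with no overlap and a difference of -2.89. Without the filter on dim genes its adjusted p by limma was 0.105, where 1.65% of 18193 genes were called. Its second probe set read at most 14.4 on any array, and its paralog Rab40c differed by 0.06.

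Groups of arrays that do not overlap are common at this size of study. The pigmented arrays were both higher in 5 and both lower in 11 of the 44 tested Rab genes (11.4% and 25.0%), where 24.4% and 19.5% of all tested genes were. With the integrity pair as a block in the fit, which called 7.04% of all genes, Rab5b was again the single Rab gene called (adjusted p of 0.0101 by limma).

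For many Rab genes the intact and the low 5′ pair of arrays differed as much as the lines did. This is called the integrity difference here. The pairs rest on the Gapdh control, and the cause of its low 5′ signal was not tested. In 26 of 44 (59.1%) the difference between the pairs, low 5′ signal minus intact, was larger than that between the lines, against 49.2% of all tested genes. Rab12, a GTPase of receptor turnover, read 1360 and 1250 on the intact but 386 and 395 on the low 5′ arrays, an integrity difference of -1.70 ± 0.30 beside a line difference of -0.04. Rab2b was higher on the low 5′ arrays, by 1.57, and Rab8a lower, by -1.13. No gene passed limma for this difference (0% of 12558, with 2789 at an unadjusted p under 0.05, among them 11 Rab genes), and the adjusted p of Rab12 was 0.0891. Rab5b had an integrity difference of -0.14.

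**Figure D4:**
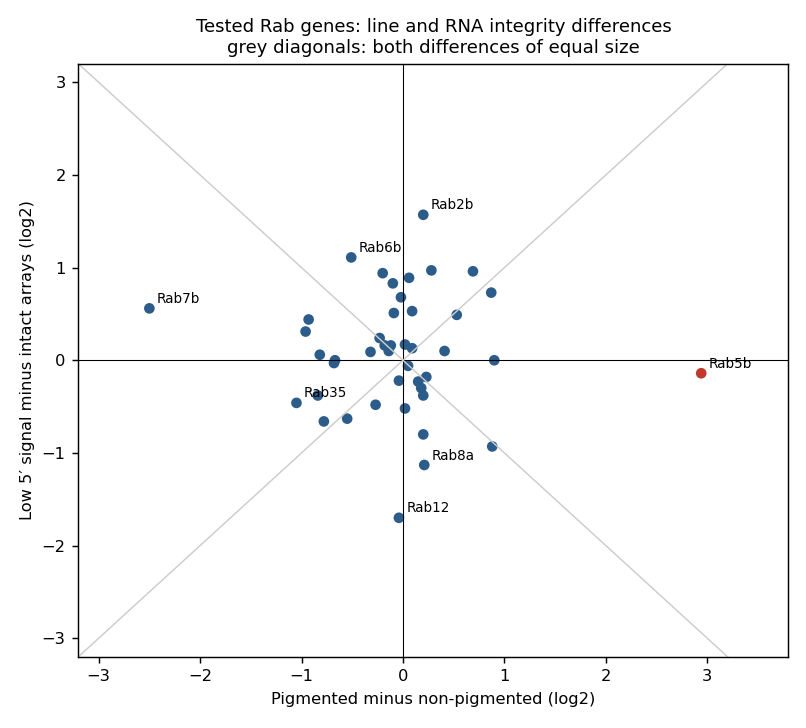
Line difference (x axis) against integrity difference (y axis, low 5′ signal minus intact), both on the log2 scale, for the 44 tested Rab genes, with grey diagonals where both are of equal size. Rab5b and Rab7b lie far out along the line axis, and Rab12, Rab2b and Rab8a along the integrity axis.

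Of the regulators of Rab proteins 3 were called. Of 124 listed, 109 were tested, and 2 rose, 1 fell and 106 did not pass, beside the background of 3.36%. Their median difference was 0.16, beside 0.07 for all tested genes. At an unadjusted p under 0.05 stood 22 of them (20.2%), against 13.8% of all tested genes. Dennd5b, a GEF of the DENN family, rose by 3.85 ± 0.59, from 211 and 231 in the non-pigmented to 2010 and 5700 in the pigmented arrays, with an adjusted p of 0.0257 by limma and the same sign in all 4 probe sets. Of these probe sets, the one at 26.4 and 61.7 against 235 and 162 was above the filter only through its pigmented arrays. Tbc1d16, a GAP, rose by 2.73 ± 0.42, from 153 and 134 to 1220 and 888 (adjusted p of 0.0269 by limma), and its second probe set, below the filter, differed by 1.74. Rin2, a GEF for Rab5 proteins, fell by 2.67 ± 0.42, from 949 and 1010 to 118 and 166 (adjusted p of 0.0282 by limma), read by 1 probe set. Groups of arrays did not overlap in any of these 3 genes. With the title date as a block Rin2 (adjusted p of 0.0591 by limma) and Tbc1d16 (0.0558) did not pass. The calls of these 3 genes also varied over the arrays left out.

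Other regulators at the ends of their lists did not pass. Tbc1d2, a GAP for Rab7, read 9.7 and 13.2 against 583 and 133, with an adjusted p of 0.0695 by limma that was 0.0451 with the integrity pair and 0.0187 with the title date as a block. It entered the test only through its pigmented arrays, and Rin1 and Sytl4, named in what follows, only through their non-pigmented ones. Tbc1d8b, a further GAP, differed by -1.92 and Sgsm3 by -1.07. Of 36 effectors tested, proteins that bind GTP-loaded Rabs, none was called and 10 had an unadjusted p under 0.05 (27.8%, against 13.8% of all tested genes). The lowest were Micall2, an effector of Rab13, at -3.22 (637 and 2120 against 131 and 93.4) and Sytl4, an effector of secretory Rabs, at -2.68. The adjusted p of Micall2 by limma was 0.0591, but 0.0356 with the integrity pair and 0.028 with the title date as a block. The highest were Rims2, a partner of Rab3 proteins, at 2.07 and Plekhm1, a partner of Rab7, at 2.02. None of the 7 genes of prenylation, escort and GDI was called, nor at an unadjusted p under 0.05: the transferase subunits Rabggtb and Rabggta differed by 0.95 and -0.71, the escort gene Chm by 0.81 and Gdi2 by -0.05. When the fit held the integrity pair as a block, 9 regulators rose and 3 fell (11% of those tested, against 7.04% of all genes in that fit).

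The genes that act with Rab5 proteins are named beside Rab5b, and were chosen after its value was known. Of its GEFs, beside Rin2, Rabgef1 read 512 and 1100 against 1540 and 3460, a difference of 1.60 ± 0.60 (adjusted p of 0.308 by limma, or 0.0359 once the integrity pair was a block). Rin1 differed by -1.93, Rin3 by 0.85, Gapvd1 by 0.58 and Als2cl by -0.43, none past the test. The effectors Eea1, Rabep1, Appl1 and Rbsn, which tether and fuse early endosomes, differed by 0.47, 1.11, 0.07 and -0.77, with no call among them.

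**Figure D5:**
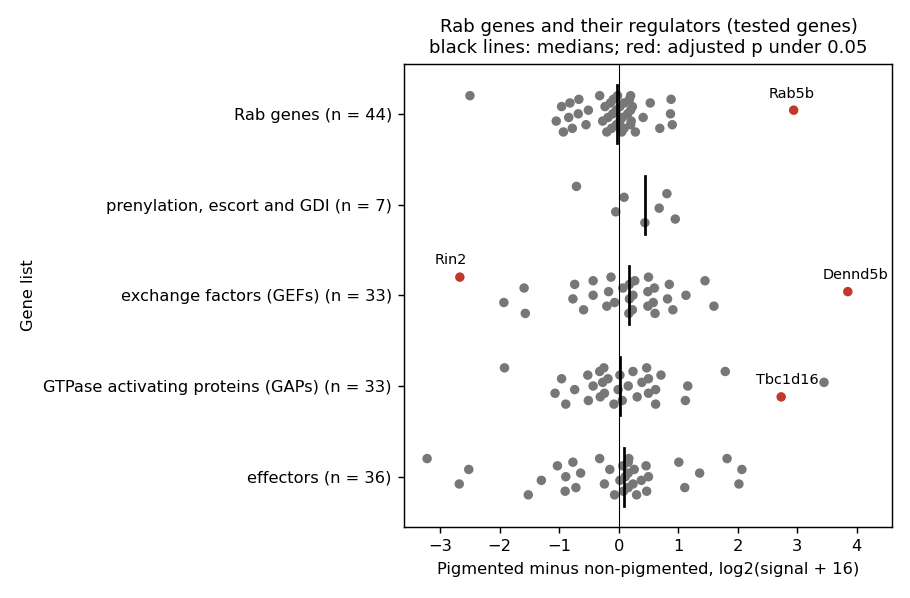
Differences (x axis, log2 scale) of the tested Rab genes and of the 4 lists of their regulators (y axis), 1 point per gene, with black lines for list medians and red points for calls. Of the 44 Rab genes, around a median of -0.03, Rab5b lies alone on the right at 2.94 and Rab7b on the left at -2.50, and Dennd5b, Tbc1d16 and Rin2 are the called regulators.

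Of the 3 melanosome Rabs, Rab27a was called, at 3.26 ± 0.46 (539 and 448 against 3710 and 6360, adjusted p of 0.0194 by limma). Its second probe set above the filter differed by 1.87, from 72.7 and 30 against 294 and 159, and was above the filter only through its pigmented arrays. Those below the filter differed by 0.95 and 0.04, with overlapping groups. Rab38 differed by 2.98 (767 and 2870 against 11700 and 11900, adjusted p of 0.0737 by limma, and 0.0254 with the integrity pair and 0.0434 with the title date as a block) and Rab32 by 0.14. The interval of Rab27a was 2.15 to 4.38, beside 1.96 to 3.92 for Rab5b, and the difference between these genes was not tested.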

How the data were processed

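The deposited table holds probe set intensity values on a linear scale, which the authors made with Affymetrix Expression Console, per the submitters' processing notes; the version and summary algorithm are not given in the sources used here. The trimmed mean of each array (2% off either end) was 500, so the arrays had been scaled in bulk, which does not correct a low 5′ signal. The table holds no detection column.

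Of 45101 probe sets, 64 controls were left out, and 34945 had 1 gene symbol, 932 several and 9160 none in the platform annotation. All 56 Rab symbols matched RefSeq (GRCm38.p6) through the Entrez number. Each gene was represented by its probe set with the highest mean, and genes with a mean log2 value below 6.44 (a signal of 70.7, the 40th percentile over probe sets) were not tested. Groups were compared with limma 3.58.1 in R 4.3.3 (lmFit, eBayes with trend, no covariate) on log2(signal + 16), with Benjamini-Hochberg adjustment over 12558 genes. The number of arrays limits the precision. The code was tested on simulated data.

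The members and lists were chosen with earlier results of these data known. Rab genes were named where called, among the 5 highest or lowest, or without overlap at a difference of at least 1, with their paralogs; regulators where called or among the 2 highest or lowest of a list. Others were named after their values were seen. Alternatives covered the title date and the integrity pair (Gapdh ratio over 3) as blocks, filters, pseudocounts, normalization, eBayes, probe set rules and leaving out each array. Testing every probe set, and the integrity difference, were added after the data were seen. Plots were made in Python 3.11.15 with matplotlib 3.10.9.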

Additional observations from a re-analysis of the deposited data

How the results depend on the processing

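With all 4 arrays in the fit, Rab5b was the 1 Rab gene called as higher under all alternatives but 1. With all probe sets of a gene averaged, 0 were called. Leaving out an array leaves a line with a single array, whose spread is then not measured, and calls varied over these fits. The difference of Rab5b ranged from 2.87 to 3.02 over the arrays left out, and that of Rab7b from -3.59 to -1.41. The count called as lower was 0 in every fit that held all 4 arrays. With the title date as a replicate block 1 Rab gene was higher (Rab5b, adjusted p of 0.0346 by limma) and 0 lower. Dates that arrays share are not stated to pair them. Regulators called as higher numbered 9 with the integrity pair as a block, 1 without the filter on dim probe sets and 1 when every probe set was tested. The date block called as many regulators as the fit without it, but Tbc1d2 in place of Tbc1d16 and Micall2 in place of Rin2. Regulators called as lower numbered 3, 0 and 1 in the same order (the last Rims1, not Rin2), 2 with arrays centred on their median and 2 with probe sets averaged. The median difference of the Rab genes was -0.27 with arrays centred on their median and -0.24 to -0.01 over the arrays left out. No value reversed its direction with a call on either side. The cause of these shifts was not tested. Dim genes have no detection value here, so their size depends on the pseudocount: for Rab7b the difference was -3.49 with a pseudocount of 1 and -1.60 with 64.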

Other observations

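Relatives of the Rab family outside its naming rule were looked at after the values of the Rab genes were known. Of 8 such genes on the array (Rabl2, Rabl3, Rabl6, Ift22, Ift27, Dnajc27, Ran and Rasef) none was called by limma, and Rasef alone had an unadjusted p under 0.05. The first 7, which include Ran, the GTPase of nuclear transport, and Ift22 and Ift27, subunits of transport in the cilium, differed by -0.37 to 0.53. Rasef, which joins a Rab domain to calcium-binding EF hands, read 105 and 562 in the non-pigmented and 39.2 and 7.23 in the pigmented arrays. It entered the test only through its non-pigmented arrays. Both pigmented arrays were lower, by -2.88 ± 0.85 (limma, adjusted p = 0.182, and 0.0341 with the title date as a block), with values of -1.13 in the intact and -4.64 in the low 5′ pair.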
